A study of Mus musculus with 9 samples.

Results

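Expression of the genes for mitochondrial ribosomal proteins was examined in mouse bone-marrow-derived macrophages that were untreated, stimulated with lipopolysaccharide (LPS), or stimulated with LPS in the presence of NCT503. The genes were chosen by name alone: every protein-coding gene whose symbol is Mrpl or Mrps followed by a number, which gave 77 of the 21434 genes present in both deposited tables. Of these, 48 carry an Mrpl symbol (large subunit) and 29 an Mrps symbol (small subunit), and all 77 had enough reads to be tested in each comparison. Their values came from 9 RNA-seq libraries, with 3 libraries per group and 20295862 to 23599685 reads per library over the shared genes.

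All cells came from C57BL/6 mice at postnatal week 8 and were grown from marrow for 6 days with 10 ng/ml macrophage colony-stimulating factor. The control group then spent 6 h in medium, the LPS group 6 h with 500 ng/ml LPS, and the LPS+NCT503 group 6 h with 500 ng/ml LPS and 50 µM NCT503. This compound is an inhibitor of phosphoglycerate dehydrogenase, the first enzyme of serine synthesis from glycolytic carbon. No group received NCT503 without LPS, so the inhibitor is seen only on the background of LPS. The labels do not say whether the libraries of a group came from separate mice or cultures, so p-values measure only the spread between these libraries. The comparisons ask how LPS changes these transcripts and which levels differ when the inhibitor is present.

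Mitochondria carry their own ribosome, which translates the few messenger RNAs copied from mitochondrial DNA into core subunits of the respiratory chain and of ATP synthase. Its ribosomal RNAs are transcribed inside the organelle, whereas every one of its proteins is encoded in the nucleus, made in the cytosol and imported. Some of these proteins descend from bacterial ribosomal proteins and others are found only in mitochondria, where they enlarge the particle and replace lost RNA. In macrophages, stimulation with LPS is known to shift metabolism from respiration towards glycolysis.

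The promoters of 3 members are shown first because these members are among those that moved most, and in different patterns. Mrpl52 and Mrpl20 rose with LPS and were lower with the inhibitor, and Mrpl42 did the reverse. Each sequence is the stretch before the RefSeq transcription start (build GRCm38.p6), written 5′ to 3′ in the direction of the gene. Capitals mark a match to 1 of 3 short motifs of factors known to act on nuclear genes for mitochondrial proteins: the NRF1 core GCGCATGC, the ETS motif CCGGAAGT bound by GABP, and the YY1 motif AAGATGG, each searched on both strands.
Mrpl52, chr14:54426659-54426908, plus strand: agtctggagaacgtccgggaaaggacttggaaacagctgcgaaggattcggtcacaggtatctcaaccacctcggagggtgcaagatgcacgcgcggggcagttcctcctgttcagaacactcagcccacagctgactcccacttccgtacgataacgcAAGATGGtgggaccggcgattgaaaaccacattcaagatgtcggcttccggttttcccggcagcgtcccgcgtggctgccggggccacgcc
Mrpl20, chr4:155802628-155802877, plus strand: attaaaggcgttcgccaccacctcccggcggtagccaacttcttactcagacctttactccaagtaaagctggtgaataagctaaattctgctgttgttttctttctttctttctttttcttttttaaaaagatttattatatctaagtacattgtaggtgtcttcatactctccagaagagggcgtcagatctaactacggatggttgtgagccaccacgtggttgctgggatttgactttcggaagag
Mrpl42, chr10:95501950-95502199, minus strand: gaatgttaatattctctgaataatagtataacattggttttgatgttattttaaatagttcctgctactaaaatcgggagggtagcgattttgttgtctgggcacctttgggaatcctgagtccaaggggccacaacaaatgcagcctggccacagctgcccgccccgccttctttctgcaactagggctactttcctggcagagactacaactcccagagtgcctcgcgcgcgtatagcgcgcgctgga
The capitals in Mrpl52 are a YY1 match that begins 91 bases before the start. No match lies in the stretches shown for Mrpl20 and Mrpl42. None of the 3 stretches holds an exon annotated in GENCODE M21.

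A RefSeq promoter was found for 68 of the 77 members, 3 of them with more than 1 window. In windows from 250 bases before to 50 bases after the start, the NRF1 core was present in 8 of 68 members (11.8%) and in 3.05% of the 27025 genes with a window. The ETS motif was present in 12 members (17.6%, against 4.31% of all genes) and the YY1 motif in 13 (19.1%, against 7.28%). Matches of the NRF1 core on the 2 strands can overlap each other, as can those of the ETS motif, and those of the YY1 motif cannot. A gene was counted once per motif. These are matches of letters in a window and no measurement of binding was made. In the bases just after the start, which are not printed, Mrpl52 also held an ETS match and Mrpl42 a YY1 match.

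A member had 39 to 1752 reads in a library, and together they took a small share of all reads. That share ranged over 0.195% to 0.223% among control libraries, 0.133% to 0.141% among LPS libraries and 0.119% to 0.159% among LPS+NCT503 libraries. Values below are normalized reads, that is, reads divided by a size factor that puts the 9 libraries on a common scale. The median over members of the group mean was 421.5, 396 and 326 normalized reads in control, LPS and LPS+NCT503. Because a longer transcript yields more reads, levels of different genes were compared per kilobase of gene model: the median member had 184 normalized reads per kb over all libraries. Mrpl14 (962 per kb), Mrpl52 (858 per kb) and Mrps21 (790.2 per kb) stood highest. Mrps35 (13.3 per kb), Mrpl47 (20.4 per kb) and Mrps30 (24.2 per kb) stood lowest. Subunits of a single particle thus differed widely in reads per kb, but the gene model weighs on this ranking. For 70 members the model is as long as all annotated exons joined, which can exceed the length of a transcript. The highest 3 have models of 949, 1109 and 739 bases, in the order given, and the lowest 3 of 8631, 4419 and 6666 bases. How much of the difference comes from model length was not tested.

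**Figure D1:**
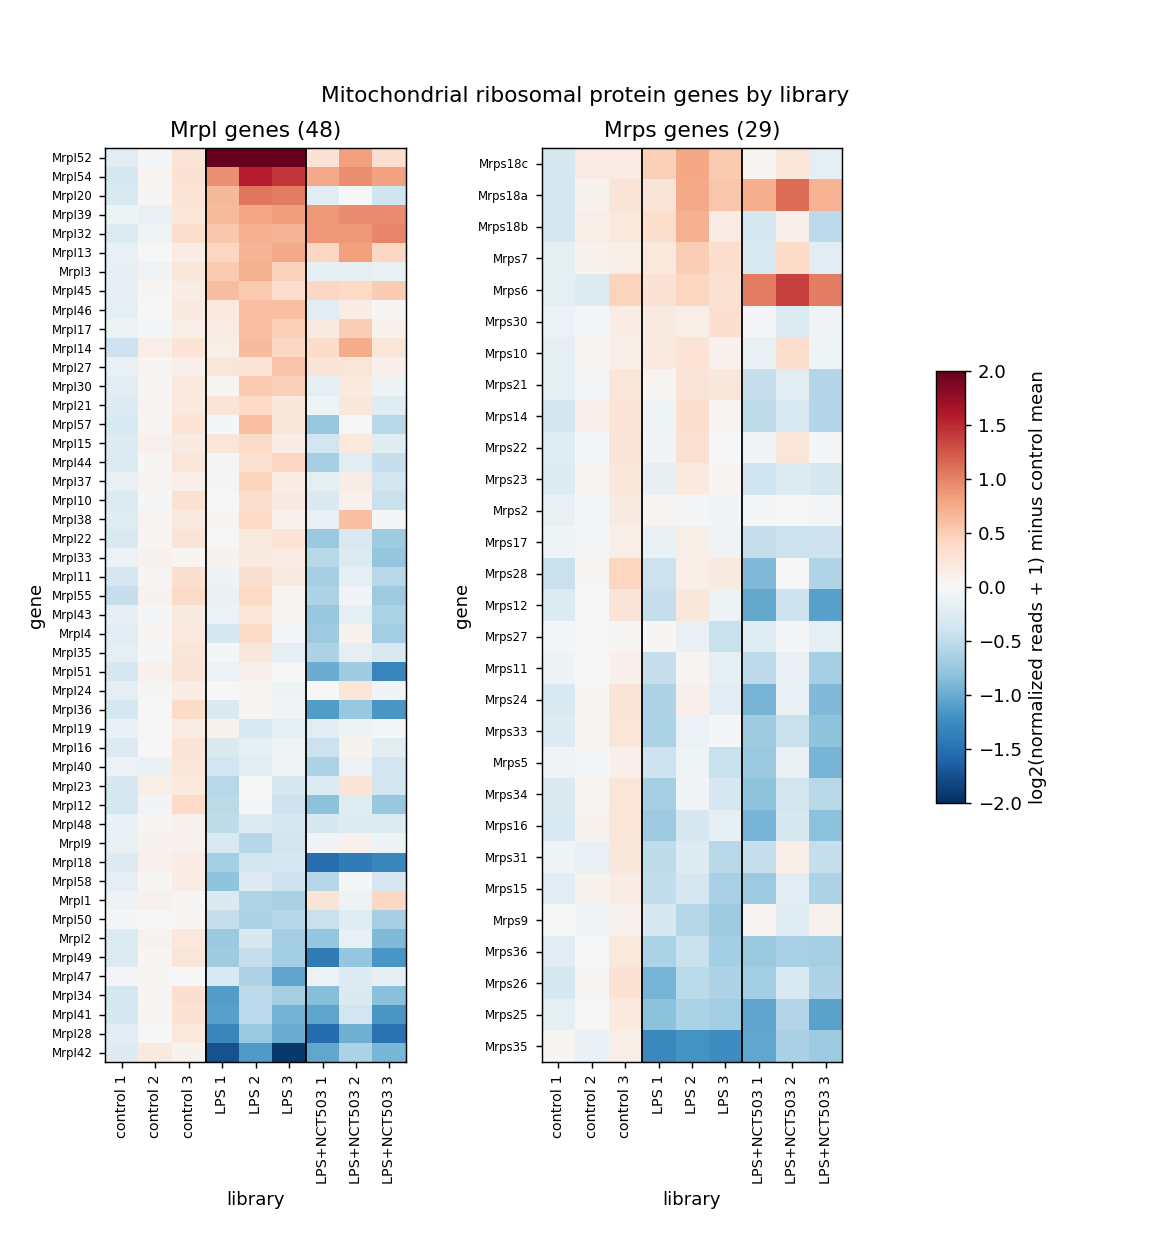
Each row is a gene and each column a library, with the colour giving log2(normalized reads + 1) minus the gene's control mean (the scale ends at 2 in either direction, which Mrpl52 exceeds in LPS); genes are sorted by the change with LPS. A few genes stand out at top and bottom, most of the others are pale in LPS, and the blue columns of LPS+NCT503 show that more members lay below than above control there.

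Libraries within a group were not alike for these genes, and this touches every result below. Of the 77 members, 72 were highest within the control group in control 3 and 71 were lowest in control 1. In the LPS group 56 were highest in LPS 2 and 55 lowest in LPS 1, and in the LPS+NCT503 group 66 were highest in LPS+NCT503 2. Among all 13614 genes of at least 10 normalized reads, 6212 were highest in control 3 and 6604 lowest in control 1. Of the same genes, 5061 were highest in LPS 2, 5806 lowest in LPS 1 and 6146 highest in LPS+NCT503 2. The same libraries stood out among all short genes. Members had a median deviation from the group mean of -0.23, 0.03 and 0.21 (log2) in control 1 to 3, and the genes with the shortest models among all genes of at least 10 normalized reads (57 to 2336 bases, 3405 genes) had -0.18, 0.03 and 0.16. In LPS+NCT503 1 to 3 the members deviated by -0.12, 0.26 and -0.12 and those short genes by -0.06, 0.13 and -0.05. The 3403 genes with the longest models deviated the other way in control 1 and 3 and in these libraries. Members were mostly short, with a median gene model of 2255 bases (607 to 8631), so a shift that follows gene length moved with their values, and its part in the results was not tested beyond the length-corrected alternative given with each comparison.

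**Figure D2:**
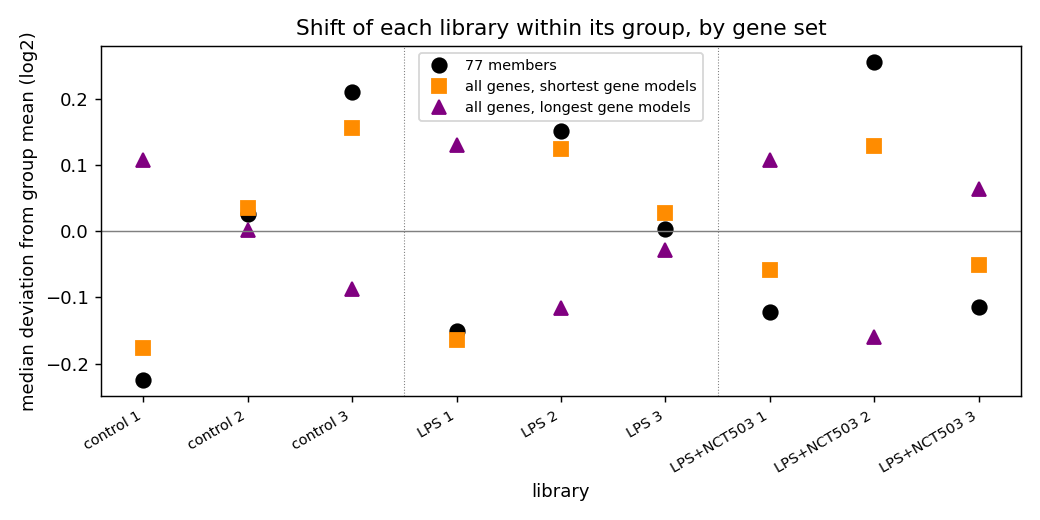
The vertical axis is the median deviation of a gene set from its group's mean in log2 units, for each of the 9 libraries on the horizontal axis; circles are the 77 members, squares the genes with the shortest models and triangles those with the longest. Circles and squares lie on the same side of 0 in every library, with control 1 at -0.23 and LPS+NCT503 2 at 0.26 for the members.

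Cell identity was checked with marker genes. All 10 macrophage markers were present, with summed levels between 278192 and 354778 normalized reads among control libraries, 425117 and 475473 among LPS libraries and 205194 and 266612 among LPS+NCT503 libraries. In the same order of groups, the 8 stromal markers summed to 5542 to 25425, 16233 to 35137 and 16136 to 41341. The 7 neutrophil markers measured here summed to 4397 to 7581, 2549 to 6159 and 245 to 542, and the 6 mast cell and basophil markers to 747 to 890.5, 962 to 1376 and 313 to 339. The 7 T and NK cell markers summed to 100.1 to 175, 121 to 219 and 36.4 to 92.8, and the 3 B cell markers measured here to 81.2 to 92.9, 16.1 to 48.5 and 13.5 to 37.9. No marker was at 0 in all libraries. The part of other cells in the members' levels was not tested, and in these bulk samples fewer cells of a type and less RNA per cell cannot be told apart.

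LPS changed the mitochondrial ribosomal protein genes in both directions, and their median stayed close to that of all genes. Against control, 10 members rose and 16 fell, and the median log2 fold change of the 77 was -0.00, beside -0.03 for all genes tested. The largest rise was that of Mrpl52 and the largest fall that of Mrpl42, both proteins of the large subunit with no bacterial counterpart. A change was called where limma gave a Benjamini-Hochberg adjusted p under 0.05 over all genes. By that rule 33.8% of members were called, beside 42.4% of all 19608 genes tested, of which 20.8% were higher and 21.6% lower, so the share of members that changed was not above the background. Only 5 of the 77 changed by a log2 of 1 or more.

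Mrpl52 rose from 336, 386 and 468 normalized reads in the control libraries to 1635, 2071 and 1996 in the LPS libraries. This was a log2 fold change of 2.26 ± 0.17 (SE, limma, adjusted p = 8.50e-07), and the groups did not overlap. The next gene on the same strand is Mmp14, a membrane-bound matrix metalloproteinase, which lies 1856 bases from Mrpl52. Its mean was 12747 normalized reads in control and 104875 with LPS, a rise of 3.04 on the log2 scale. Whether reads or regulation are shared between these neighbours was not tested. Mrpl54, another mitochondrion-specific protein of the large subunit, had 268, 356 and 419.9 in control and 643, 1015 and 918 with LPS, a log2 fold change of 1.30 ± 0.21 (SE, limma, adjusted p = 4.61e-04). These were the only members whose rise was still called when libraries were scaled by their total reads alone, at 1.57 and 0.60.

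The other 4 of the 6 largest rises were smaller. Mrpl20, the counterpart of bacterial L20, went from 311, 392 and 468 to 601, 807 and 787, a log2 fold change of 0.91 ± 0.19 (SE, limma, adjusted p = 0.00229). Mrpl39, a mitochondrion-specific large-subunit protein, went from 316, 304 and 401 to 526, 577 and 606, a log2 fold change of 0.75 ± 0.16 (SE, limma, adjusted p = 0.00318). Both were higher in every LPS library than in any control library. Beside Mrpl39, on the opposite strand and 2331 bases away, lies Mir155hg, the host gene of the inflammatory microRNA miR-155, which went from a mean of 1.27 to 545 normalized reads. Mrpl32 and Mrpl13 are counterparts of bacterial L32 and L13, and Mrpl32 is known to be matured by the m-AAA protease of the inner membrane before it enters the ribosome. Mrpl32 went from 191, 218 and 296 to 336, 378 and 369.8, a log2 fold change of 0.64 ± 0.19 (SE, limma, adjusted p = 0.0179). Mrpl13 went from 446, 499.8 and 547 to 672, 799 and 839, a log2 fold change of 0.63 ± 0.16 (SE, limma, adjusted p = 0.00705), and shares 330 exon bases with Mtbp on the opposite strand. Scaled by library totals, the log2 fold changes were 0.22 for Mrpl20 and 0.05 for Mrpl39, no longer called, and -0.06 for Mrpl32 and -0.07 for Mrpl13. The rise of Mrpl32 was also not called without control 1, control 2, LPS 2 or LPS 3.

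The largest fall was that of Mrpl42, which went from 645, 883 and 817 normalized reads in control to 230.4, 355 and 202 with LPS, a log2 fold change of -1.60 ± 0.22 (SE, limma, adjusted p = 1.11e-04). Mrps35, a mitochondrion-specific protein of the small subunit, went from 175, 158 and 187 to 70.3, 75.0 and 72.1, a log2 fold change of -1.24 ± 0.19 (SE, limma, adjusted p = 3.11e-04). Mrpl28, the counterpart of bacterial L28, went from 572, 669 and 770.0 to 267, 397 and 336, a log2 fold change of -1.01 ± 0.19 (SE, limma, adjusted p = 0.001). In these 3 genes every LPS library lay below every control library, and the fall was called under every alternative run. Tmem8 lies 246 bases from Mrpl28 on the same strand. Its mean was 4568 normalized reads in control and 963 with LPS, a log2 fold change of -2.29, which was called. With the inhibitor against LPS it had 1.22, which was not called. Whether reads or regulation are shared with Mrpl28 was not tested. Other named members also have neighbours within 5000 bases, and not all are given here. Mrpl41, which is found only in mitochondria, went from 433, 549.6 and 663 to 255, 378 and 279, a log2 fold change of -0.85 ± 0.21 (SE, limma, adjusted p = 0.00582). Mrpl34, the counterpart of bacterial L34, went from 468, 608 and 743 to 274, 415 and 378, a log2 fold change of -0.77 ± 0.21 (SE, limma, adjusted p = 0.0122), and was not called without control 3. Mrps25, a small-subunit protein, went from 276, 315 and 361 to 177, 203 and 195, a log2 fold change of -0.72 ± 0.17 (SE, limma, adjusted p = 0.00591). Mrps25 shares 4590 exon bases with Nr2c2 on the opposite strand, whose log2 fold change was -0.87, and the strand setting of the counting is not given, so its value is uncertain.

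**Figure D3:**
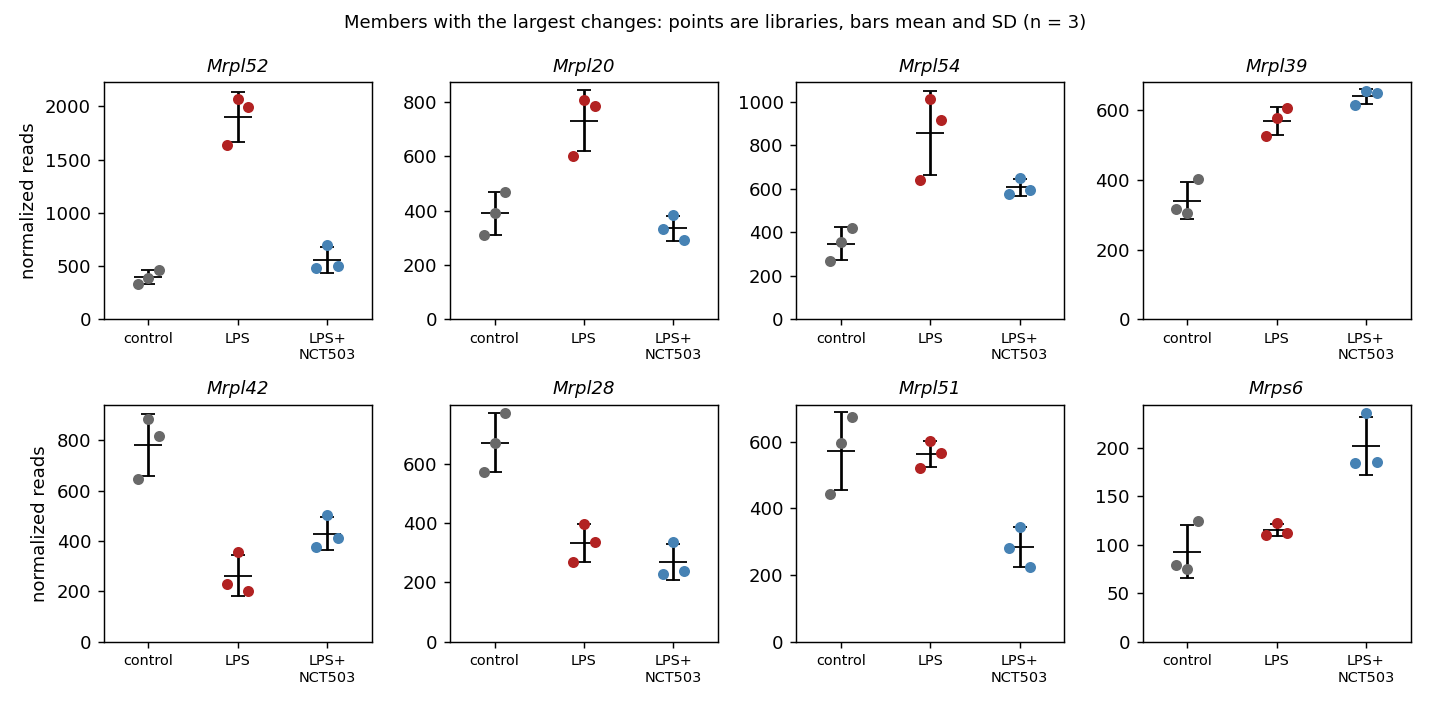
Normalized reads of 8 members in the 3 groups on linear axes that start at 0; points are libraries and bars the mean and SD (n = 3). Mrpl52 and Mrpl20 are highest in LPS, Mrpl39 and Mrpl54 stay above control with NCT503, Mrpl42 and Mrpl28 are lower than control in both LPS groups, Mrpl51 is low and Mrps6 high in LPS+NCT503.

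By role, 8 of the 48 Mrpl genes rose with LPS and 10 fell (median 0.07), and 2 of the 29 Mrps genes rose and 6 fell (median -0.11). These are 16.7% and 20.8% of Mrpl and 6.90% and 20.7% of Mrps genes, beside 20.8% and 21.6% of all genes tested. Among the 45 members with a bacterial counterpart 5 rose and 8 fell, and among the 31 classed as mitochondrion-specific 5 rose and 7 fell. The latter class includes Mrps18a and Mrps18b, although they are paralogs of bacterial S18. The 10 mitochondrion-specific proteins of the small subunit had 3 falls, no rise and a median of -0.31. No difference between these classes was tested. Of the 45 members that share no exon base with another annotated gene, 7 rose and 11 fell.

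The counts depended on scaling and on single libraries. Library totals alone put the median of all genes at -0.66 and called 2 members higher and 60 lower, but relative to all genes the members' median was then -0.04, beside 0.03 in the scaling used here. After a correction for gene length, added after the data were seen, 11 members rose and 17 fell. The number that fell was 5 without control 3, 6 without control 2 and 8 without LPS 3, and the number that rose was 6 without control 1, control 2 or LPS 2. For these alternatives and those given below, the share of all genes called is not shown. Whether such counts moved more than those of all genes was therefore not tested.

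With NCT503 present, more members were lower than higher than with LPS alone. Of the 77, 16 fell and 3 rose, and the median log2 fold change was -0.28, beside 0.08 for all genes tested. The falls were led by Mrpl52 and Mrpl20, and the 3 that rose were Mrps6, Mrpl42 and Mrpl1. In this comparison 31.8% of the 20016 genes tested were called, 16.4% higher and 15.5% lower. The members called lower were 20.8% of the 77 and those called higher 3.90%, so the share called in all (24.7%) was below the background and its direction was mostly downward.

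The lower median remained below that of all genes in every setting run: relative to all genes it was -0.36, with a range of -0.49 to -0.22 over 18 settings. Gene length moved with this result. Over 4 classes of gene length of equal size, the median of all genes was -0.18 in the shortest, then -0.12, 0.04 and, in the longest, 0.30. From the shortest to the longest class, the members' medians were -0.39 (39 members), -0.03 (15 members), 0.16 (11 members) and -0.24 (12 members). The members' median was thus below that of all genes in the shortest and longest classes, and above it in the middle classes. Differences within a class were not tested. After a correction of each library for gene length, added after the data were seen, 13 members were lower and 4 higher and the members' median was -0.27 relative to all genes. With libraries scaled by totals alone 6 members were lower and 6 higher, at a relative median of -0.32. Of the single libraries, leaving out LPS+NCT503 2, in which members stood highest, gave 25 lower members, and leaving out LPS 2, LPS 3, LPS+NCT503 1 or LPS+NCT503 3 gave 6. The number higher was 0 without LPS 3 and 1 without LPS+NCT503 3.

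Mrpl52 had 1635, 2071 and 1996 normalized reads with LPS and 478, 696 and 497 with LPS+NCT503, a log2 fold change of -1.78 ± 0.20 (SE, limma, adjusted p = 3.57e-05). Its neighbour Mmp14 had means of 104875 and 42148 normalized reads, a log2 difference of -1.31. Mrpl20 had 601, 807 and 787 with LPS and 331, 383 and 292 with LPS+NCT503, a log2 fold change of -1.12 ± 0.20 (SE, limma, adjusted p = 0.00103). Both genes were lower in every library with the inhibitor than in any with LPS alone. Mrpl51, a large-subunit protein without a bacterial counterpart, had 522, 601 and 566 and 282, 344 and 224, a log2 fold change of -1.01 ± 0.20 (SE, limma, adjusted p = 0.00267). Mrpl18, the counterpart of bacterial L18 in the central protuberance, had 234, 288 and 288 and 128, 140.5 and 149, a log2 fold change of -0.94 ± 0.20 (SE, limma, adjusted p = 0.00397). Mrpl36, the counterpart of bacterial L36 and among the smallest ribosomal proteins, had 386, 492 and 448 and 217, 278 and 211, a log2 fold change of -0.91 ± 0.20 (SE, limma, adjusted p = 0.00444). These 5 falls were called under every alternative run. Mrpl22, the counterpart of the bacterial protein L22 that lines the exit tunnel, had 209, 240.0 and 256 and 125, 169.6 and 128, a log2 fold change of -0.74 ± 0.22 (SE, limma, adjusted p = 0.0212), and its fall was lost without LPS 2, LPS 3, LPS+NCT503 1 or LPS+NCT503 3 and with library totals.

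Mrpl18, Mrpl36 and Mrpl51 share exon bases with other genes. Mrpl51 overlaps the microRNA gene Mir3098 by 87 bases on the same strand. Mrpl18 overlaps Tcp1, a subunit of a cytosolic chaperonin, by 141 bases on the opposite strand, and Tcp1 had a log2 fold change of 0.48, which was not called. Mrpl36 overlaps Ndufs6, a subunit of respiratory complex I, by 30 bases, and Ndufs6 was called lower as well, at -0.70 (limma, adjusted p = 0.0457). Of the 45 members without such an overlap 8 fell (17.8%) and 2 rose (4.44%), beside 15.5% and 16.4% of all genes tested.

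The largest of the 3 rises was that of Mrps6. This gene, the counterpart of bacterial S6 in the small subunit, had 111, 123 and 113 normalized reads with LPS and 184, 236 and 185 with LPS+NCT503, a log2 fold change of 0.79 ± 0.21 (SE, limma, adjusted p = 0.014). Mrps6 shares 159 exon bases on the same strand with Slc5a3, the sodium-coupled transporter of myo-inositol, whose mean went from 15.4 to 182 normalized reads, so the value of Mrps6 is uncertain. Mrpl42 had 230.4, 355 and 202 and 375, 502 and 412, a log2 fold change of 0.74 ± 0.24 (SE, limma, adjusted p = 0.0322), which left it below control. Mrpl1, the counterpart of the bacterial stalk protein L1, had 185, 149 and 143 and 269, 211 and 299.8, a log2 fold change of 0.70 ± 0.22 (SE, limma, adjusted p = 0.0295). In all 3 the groups did not overlap. The rise of Mrps6 was not called without LPS 3 (adjusted p = 0.0534, limma). The calls of Mrpl42 and Mrpl1 were each lost without LPS 3 or LPS+NCT503 3, that of Mrpl42 also without LPS 1 or LPS+NCT503 2, and that of Mrpl1 also without LPS 2 or LPS+NCT503 1 and with quantile normalization.

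By role, 12 of 48 Mrpl genes fell and 2 rose with the inhibitor (median -0.30), and 4 of 29 Mrps genes fell and 1 rose (median -0.26). Members with a bacterial counterpart gave 11 falls and 2 rises of 45, and those found only in mitochondria 5 falls and 1 rise of 31. None of the 10 mitochondrion-specific proteins of the small subunit was called, with changes of -0.67 to 0.44. These classes were not tested against each other.

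**Figure D4:**
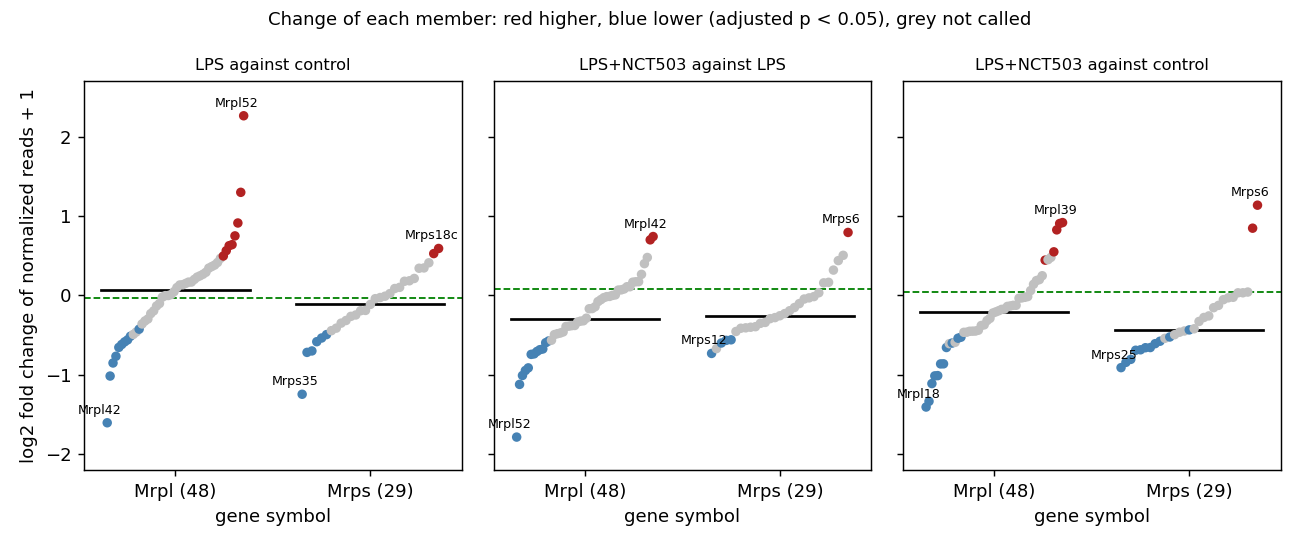
Log2 fold change of each member in the 3 comparisons, sorted within the Mrpl and Mrps genes; red points were called higher, blue lower and grey not called, black bars are medians and the green dashed line is the median of all genes tested. The black bars lie near the dashed line for LPS against control and below it in both comparisons with NCT503.

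Against untreated cells, macrophages given LPS+NCT503 had 22 members lower and 7 higher. The median log2 fold change was -0.32, beside 0.05 for all genes, and relative to all genes it lay between -0.51 and -0.23 over 17 settings. This comparison shares its control libraries with the first and its inhibitor libraries with the second, so their values are set side by side and not counted as agreement. Of the 19930 genes tested 40.4% were called, 20.7% higher and 19.7% lower, beside 37.7% of the members. Members called lower were 28.6% of the 77 and members called higher 9.09%.

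Mrpl18 was lower by the most, with 309, 393 and 416 normalized reads in control and 128, 140.5 and 149 in LPS+NCT503, a log2 fold change of -1.40 ± 0.18 (SE, limma, adjusted p = 1.68e-04). With LPS alone its fold change was -0.46 and not called (adjusted p = 0.0586, limma), although every LPS library lay below every control library. Mrpl28 was at 229, 337 and 237 with the inhibitor, a log2 fold change of -1.33 ± 0.20 (SE, limma, adjusted p = 4.05e-04), and against LPS alone it differed by -0.32 (adjusted p = 0.321, limma). Mrpl49, a mitochondrion-specific large-subunit protein, had 284, 352 and 407 in control, 209.7, 249.6 and 215 with LPS and 130.5, 202 and 153 with LPS+NCT503, a log2 fold change of -1.11 ± 0.22 (SE, limma, adjusted p = 0.00227). Its exons overlap those of Syvn1, an endoplasmic reticulum ubiquitin ligase, by 91 bases, and Syvn1 differed by -0.08. Mrpl36 (-1.01), Mrpl51 (-1.01) and Mrps25 (-0.91) completed the 6 largest falls. The control values of Mrpl36 were 371, 467 and 607 and those of Mrpl51 444, 597 and 673 normalized reads, and Mrps25 had 151, 209 and 149 with LPS+NCT503. All 6 were lower in every library of the inhibitor group than in any control, and all 6 calls held under every alternative run.

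Among the members above control, Mrps6 changed most, from 79.3, 75.6 and 124 to 184, 236 and 185, a log2 fold change of 1.14 ± 0.24 (SE, limma, adjusted p = 0.00345), and the overlapping Slc5a3 had 2.11. Mrpl39 was at 615, 653 and 649, a log2 fold change of 0.92 ± 0.17 (SE, limma, adjusted p = 0.00136), and Mrpl32 at 423, 425 and 456, a log2 fold change of 0.91 ± 0.19 (SE, limma, adjusted p = 0.00358). Both were above control in LPS and in LPS+NCT503 and did not differ by the test between those groups, at 0.17 ± 0.17 and 0.27 ± 0.18 (SE). Mrpl54 was at 576, 650.3 and 597, with a log2 fold change of 0.83 over control, and Mrpl13 at 661, 875 and 663, with 0.55. The overlapping Mtbp differed by 1.54. Mrpl52 had 478, 696 and 497 normalized reads, every library above every control, with a log2 fold change of 0.48 ± 0.20 (SE, limma, adjusted p = 0.08), which did not pass the threshold, while Mmp14 stayed above control by 1.73. Mrpl20 differed from control by -0.21 ± 0.20 (SE) and Mrpl42 by -0.86 (limma, adjusted p = 0.00358). Of these rises, only those of Mrps6 and Mrpl39 were called under every alternative run.

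By role, 11 of 29 Mrps genes were lower than control and 2 higher (median -0.43), and 11 of 48 Mrpl genes were lower and 5 higher (median -0.21). These are 37.9% and 6.90% of Mrps and 22.9% and 10.4% of Mrpl genes, beside 19.7% and 20.7% of all genes tested. Of the members without exon overlap 13 of 45 were lower and 5 higher. Library totals alone put the median of all genes at -0.38 and called 57 members lower and 2 higher, at a median of -0.38 relative to all genes, and the length correction gave 22 lower and 8 higher. Without LPS+NCT503 2 the number lower was 37, and it was 8 without control 3, 9 without LPS+NCT503 3, and 10 without control 2 or without LPS+NCT503 1.

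Several members are of interest for their known roles, whatever their change. Mrpl12 forms the flexible stalk that receives translation factors and has been linked to the mitochondrial RNA polymerase. It had 376, 461 and 632 normalized reads in control, 331, 472 and 361 with LPS and 270.1, 405 and 284 with LPS+NCT503. The groups overlapped, and its differences of -0.32 with LPS, -0.29 with the inhibitor against LPS and -0.61 against control were not called. Mrps12, the counterpart of bacterial S12 at the decoding centre, had 368, 449 and 536, 324, 522 and 414 and 218, 334 and 210.0. It was lower with LPS+NCT503 than with LPS by -0.73 ± 0.25 (SE, limma, adjusted p = 0.0399), a call lost without LPS 2, LPS 3, LPS+NCT503 1 or LPS+NCT503 3, with library totals and after the length correction, and lower than control by -0.84, lost without control 3 or LPS+NCT503 3. Mrps30, which despite its symbol sits in the large subunit, had 146, 153 and 175, 179, 172 and 198 and 154, 130.1 and 149 and was not called in any comparison.

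The 3 paralogs of bacterial S18 differed from each other. Mrps18a, which lies in the large subunit, had 489, 643 and 729.9 normalized reads in control, 736, 1039 and 901 with LPS and 1013, 1331 and 995 with LPS+NCT503. It was called above control in both, at 0.53 with LPS and 0.85 with the inhibitor, but scaling by totals gave -0.17 and 0.40, neither with a rise called, and the LPS call was also lost with a pseudocount of 0.1, with TMM scaling, with quantile normalization and without control 1, control 2, LPS 2 or LPS 3. Mrps18b, a small-subunit protein, had 119.6, 166 and 175, 195, 248 and 170.5 and 119, 162 and 105 and was not called. Mrps18c, the small-subunit member that takes the place of bacterial S18, had 208, 293 and 292, 364, 449 and 376 and 269, 308 and 232. It was higher with LPS by 0.59 (-0.10 when scaled by totals) and lower with the inhibitor than with LPS by -0.56. The rise was lost without control 1, LPS 2 or LPS 3, and the fall when any 1 of the LPS libraries, LPS+NCT503 1 or LPS+NCT503 3 was left out, with no filter on low values, with library totals and after the length correction. No difference between the paralogs was tested. Mrps36, which structural work has assigned to the 2-oxoglutarate dehydrogenase complex of the citric acid cycle and not to the ribosome, had 207, 240.1 and 279.6, 156, 177 and 149 and 144, 153 and 152. It was lower than control by -0.58 with LPS and -0.68 with LPS+NCT503, both lost without control 2 or control 3 and the first also without LPS 3 and with quantile normalization.

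The mitoribosome works with RNAs and proteins outside the Mrp symbols, and these were read from lists. Of all genes tested, 20.8% rose and 21.6% fell with LPS, and 16.4% rose and 15.5% fell with the inhibitor against LPS. Against control 20.7% were higher and 19.7% lower with LPS+NCT503. The counts in this and the next paragraphs stand beside those shares. The 5 ribosomal proteins without an Mrp symbol (Dap3, Ptcd3, Chchd1, Aurkaip1 and Gadd45gip1) were not called in any comparison. Dap3, a GTP-binding protein of the small subunit, had 447, 532 and 556 normalized reads in control, 492, 530.5 and 548 with LPS and 600.4, 648 and 594 with LPS+NCT503. Both ribosomal RNAs of the particle were higher than control with LPS, mt-Rnr1 by 0.72 and mt-Rnr2 by 0.83 (limma, adjusted p = 0.00578 and 0.00128), and with LPS+NCT503 by 0.50 and 0.52. All 4 calls were lost when libraries were scaled by totals or by quantiles, where mt-Rnr1 had 0.02 and -0.04 with LPS, and the last pair also without control 3 or LPS+NCT503 3, for mt-Rnr1 also without control 2 and for mt-Rnr2 without control 1. The share of these RNAs that reaches a library depends on how it was prepared.

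The transcripts of the 13 protein-coding genes of mitochondrial DNA, which the mitoribosome translates, did not change by the test with LPS (median -0.12). Of these 13 genes, 10 fell and none rose with the inhibitor against LPS (median -0.67). Those with the smallest p were mt-Cytb, mt-Nd4l and mt-Nd4. mt-Cytb, cytochrome b of complex III, went from a mean of 10932 to 4701, a log2 fold change of -1.20 ± 0.18 (SE, limma, adjusted p = 2.94e-04). mt-Nd4l, a subunit of complex I, went from 46.1, 54.5 and 43.3 to 20.4, 14.6 and 16.2, a log2 fold change of -1.44 ± 0.32 (SE, limma, adjusted p = 0.00422). Against control, 10 of 13 were lower as well (median -0.71), with mt-Co2, a subunit of cytochrome oxidase, at -0.97. The groups of mt-Cytb and of mt-Nd4l did not overlap.

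Factors that make and run the mitoribosome had their own patterns. Of 20 mitochondrial aminoacyl-tRNA synthetases and amidotransferase subunits, which charge the tRNAs, 14 fell with LPS and none rose (median -0.68). Nars2, for asparagine, had 48.5, 47.6 and 50.5 normalized reads in control, 5.76, 8.18 and 9.18 with LPS and 44.8, 54.1 and 55.2 with LPS+NCT503, a fall of -2.54 and a rise of 2.60 on the log2 scale. Against LPS, 5 of the 20 rose with the inhibitor, among them Wars2, for tryptophan, by 2.08, and none fell. Against control 10 were lower and 1 higher. Of 11 translation factors 4 fell with LPS and none rose (36.4% lower, beside 21.6% of all genes tested). With the inhibitor against LPS 2 of the 11 rose, Gfm2 and Mtif2, and 1 fell, Tufm, and the list median was 0.30. Both rises were lost without LPS 2, LPS+NCT503 1 or LPS+NCT503 3, among other alternatives. Tufm, the elongation factor that brings tRNAs to the ribosome, had 939, 1147 and 938 with LPS and 541, 830.3 and 544 with LPS+NCT503. That fall of -0.68 was lost without LPS 2, LPS 3, LPS+NCT503 1 or LPS+NCT503 3 and with library totals.

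Of 33 genes for assembly of the particle and for processing or modifying its RNA, 14 fell and 3 rose with LPS (median -0.44). Rbfa, a maturation factor of the small subunit, went from 917, 1143 and 1274 to 335, 389 and 408, a log2 fold change of -1.55 ± 0.17 (SE, limma, adjusted p = 1.79e-05). Mtg1, a GTPase of large-subunit assembly, fell by 1.55. Lrpprc, which stabilizes mitochondrial messenger RNAs, went from 501, 433 and 373 to 217, 131 and 121 and stood at 392, 276 and 352 with LPS+NCT503. With the inhibitor against LPS, 6 of the 33 rose and 5 fell. Afg3l2, a subunit of the m-AAA protease that matures Mrpl32, had 899, 803 and 934 with LPS and 3053, 2594 and 3054 with LPS+NCT503, a log2 fold change of 1.72 ± 0.17 (SE, limma, adjusted p = 1.33e-05). Noa1, a GTPase of mitochondrial translation, rose by 1.41, and Mrm2, which methylates the large ribosomal RNA, fell by 1.46. Against control, 11 were lower and 4 higher. Of the 10 genes for transcription and copying of mitochondrial DNA, 3 fell and 1 rose with LPS. Polrmt, the RNA polymerase, fell with LPS by 0.58, a call lost without control 2, control 3, LPS 1 or LPS 3 and with all 9 libraries in 1 fit, and lay -1.16 from control with LPS+NCT503. Tfam, which packages the DNA, was not called in any comparison.

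Of 8 regulators of mitochondrial gene expression, 5 rose with LPS and none fell (62.5% higher, beside 20.8% of all genes tested). Esrra, an orphan nuclear receptor, had 1524, 1930.1 and 2087 normalized reads in control, 3334, 4952 and 3762 with LPS and 1833, 2405 and 1745 with LPS+NCT503. Gabpb1, a subunit of the GABP factor that binds the ETS motif, had 230.2, 246 and 247, 522, 470.5 and 455 and 1208, 822 and 1170.0. Its log2 fold change was 1.00 with LPS (0.30 and not called when scaled by totals) and 1.12 with the inhibitor against LPS. Myc had 274, 186 and 248, 299.5, 409 and 525 and 993, 1130.0 and 968. Gabpb1 and Myc were therefore highest in the group with the inhibitor, while Esrra was highest in LPS alone. No relation between these regulators and the members was tested.

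**Figure D5:**
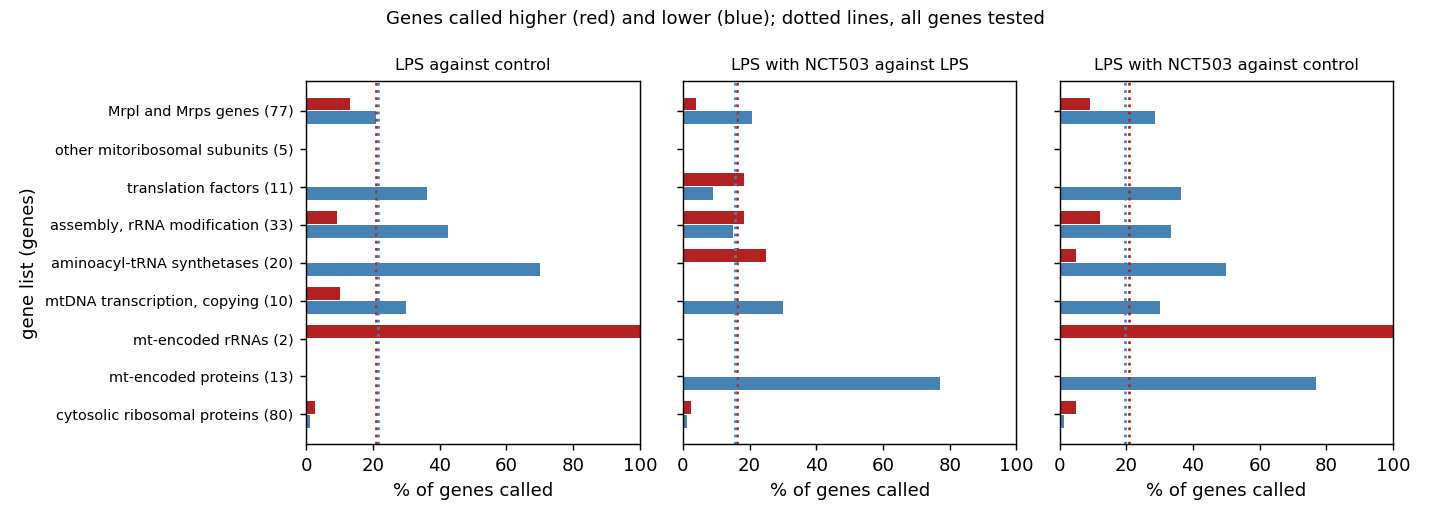
Share of genes called higher (red) and lower (blue) in each list for the 3 comparisons, with dotted lines for all genes tested and the number of genes in brackets. Bars of the members stay near or below the dotted lines except the blue ones with NCT503, whereas 70.0% of the tRNA synthetases fell with LPS and 76.9% of the mitochondrially encoded proteins fell with NCT503.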

How the data were processed

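RNA was measured by RNA-seq in 9 libraries. TopHat2 was the aligner and mm10 the genome build, per the submitters' processing notes. Versions, read counter, annotation and strand setting were not given in the sources used here. From these the authors deposited 2 tables (23001 and 22620 genes) that hold, per the file headers, signal for each library, and for each gene their own log2 fold change and p-value, which were not used here. In every library column 100% of the deposited signal values were whole reads divided by a size factor (tolerance 0.001), equal to the median-of-ratios factors of that table. The LPS libraries gave the same reads in both tables. The 9 libraries were therefore joined over 21434 genes and divided by median-of-ratios factors over all 9 (0.733 to 1.46). In libraries 1 to 3 the factors were 1.46, 1.43 and 1.25 for control and 0.868, 0.733 and 0.763 for LPS. For LPS+NCT503 they were 0.981, 0.961 and 0.924. The factors thus differed by group, and scaling by library totals leaves this difference in the values.

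A gene was tested when the mean of either group reached 1 normalized read. The test was limma 3.58.1 (R 4.3.3, trend and robust) on log2(normalized reads + 1), with the 3 libraries of each group. Genes were called at a Benjamini-Hochberg adjusted p under 0.05 over all genes tested. Such fold changes understate those of genes with few reads. The script was run on simulated reads for control against LPS only. Genes were drawn independently with the same dispersion, so that run does not bear on shifts shared by many genes of a library. Alternatives were a pseudocount of 0.1, no filter, TMM, library totals (CPM), quantile and deposited scaling, all 9 libraries in 1 fit, a replicate block, edgeR 4.0.16 and DESeq2 1.42.0 on the recovered reads, leaving out each library and, added after the data were seen, a correction for gene length.

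The members, lists and tests were chosen with earlier results of these data known. Genes named are the 6 largest rises and falls among called members in each comparison, 7 members and 7 pathway genes whatever their values, the 3 highest and 3 lowest members per kb, and up to 3 called genes per list with the smallest p; any other was named after its values were seen, neighbours and overlapping genes among them. Coordinates are those of the deposited tables. Of the members 71 have the same ends as in GENCODE M21, and 32 share exon bases with another gene there. Kinases and pseudogenes with symbols like those of cytosolic ribosomal proteins were kept out of that list. Mrps36 was kept because the symbol alone set membership.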

Additional observations from a re-analysis of the deposited data

How the results depend on the processing

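Library totals alone gave 2 members higher and 60 lower with LPS, 6 and 6 with NCT503 against LPS, and 2 and 57 against control, where the size factors gave 10 and 16, 3 and 16, and 7 and 22. Under the other scalings, filters, pseudocount, edgeR, DESeq2 and the length correction each of these counts stayed within 1.5 times. Leaving out 1 library gave 6 to 13 higher and 5 to 17 lower with LPS, 0 to 3 higher and 6 to 25 lower with NCT503 against LPS, and 5 to 7 higher and 8 to 37 lower against control. Shares of all genes called in these settings are not shown, so the counts have no background beside them. With the replicate number as a replicate block, 16 rose and 20 fell with LPS, 5 rose and 27 fell with NCT503 against LPS, and 6 rose and 24 fell against control, and all 97 calls of named genes were kept. The labels do not say that numbers pair the libraries, and deviations of same-numbered libraries correlated at 0.19, 0.10 and -0.03 between control and LPS and at 0.37, 0.32 and -0.10 between LPS and LPS+NCT503, so the numbers were not taken as pairs.

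Of the 97 calls, 72 were kept with library totals, 20 lost and 5 turned in sign, and 47 to 62 were kept when 1 library was left out, over the 63 to 67 calls each such fit bears on. Log2 fold changes that turned in sign with library totals were, for LPS against control, Mrpl32 -0.0553, Mrpl13 -0.0698, Mrps30 -0.479, Mrps18a -0.169, Mrps18b -0.282, Mrps18c -0.104, Tufm -0.644, Dap3 -0.660 and Polg -0.167, for NCT503 against LPS, Mrps36 0.142 and mt-Rnr1 0.0221, and against control, Mrps18c -0.416 and Dap3 -0.184. With quantile normalization, Tfam turned to 0.0387, Tufm to -0.253, Dap3 to -0.0471 and mt-Rnr1 to -0.0447 with LPS, and mt-Rnr1 to 0.0218 against LPS and -0.0229 against control. With TMM, Tufm turned to -0.0230, Dap3 to -0.0390 and Mrps18c (against control) to -0.0467, with edgeR Dap3 to -0.0143 and Mrps18c to -0.00690, and with the length correction Mrps36 to 0.0946 against LPS. With 1 library left out, values that changed sign ran from -0.0797 to 0.150 for Tufm, -0.0566 to 0.0998 for Dap3, -0.283 to 0.0616 for Mrps12 and -0.103 to 0.0156 for Tfam with LPS, and from -0.129 to 0.138 for Mrps18c against control. The cause was not tested. Each member had 39 reads or more in each library, and the lowest of these depths limits the precision of the members with fewest reads.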

Other observations

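The proteins of the cytosolic ribosome, which make the mitochondrial ribosomal proteins along with the rest of the cell, were also read in the 3 comparisons. Of 80 genes, 2 rose and 1 fell with LPS (median log2 fold change 0.23), 2 rose and 1 fell with NCT503 against LPS (median -0.13), and 4 rose and 1 fell with LPS+NCT503 against control (median 0.13). Of all genes tested, 42.4%, 31.8% and 40.4% were called in these comparisons, and the difference in share was not tested. Their median deviation from the group mean was -0.35, 0.07 and 0.29 (log2) in control 1 to 3 and -0.30, 0.26 and 0.01 in LPS 1 to 3.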
